A study of Mus musculus with 9 samples.

Results

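The genes described here are the matrix metalloproteinases (Mmp genes), the ADAMTS proteases (Adamts genes) and the tissue inhibitors of metalloproteinases (Timp genes) in mouse bone marrow stroma. They were chosen by symbol, as every array row paired with exactly 1 gene whose symbol was Mmp, Adamts or Timp followed by its number, and where a gene had several rows, that with the highest mean signal stands for it. This gave 44 of the 19938 genes measured, namely 22 Mmp, 18 Adamts and 4 Timp genes, and the genes Mmp15 and Adamts2 were not analysed here.

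Both protease families are zinc enzymes that cut the extracellular matrix. MMPs are made as inactive precursors and cut collagens, gelatin and many secreted or membrane proteins, with some of them anchored in the cell membrane; ADAMTS enzymes are secreted and include cleavers of aggrecan and versican, processors of procollagen and the protease of von Willebrand factor. The 4 TIMPs bind the catalytic sites of MMPs, and Timp3 also inhibits aggrecan-cleaving ADAMTS enzymes. In marrow, neutrophils store Mmp8, Mmp9 and Mmp25, and Mmp13 is a collagenase of bone and cartilage cells.

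RNA was hybridised to 9 Affymetrix Mouse Gene ST arrays. On 3 of them, called YFP-positive, were marrow cells of IL7-Cre transgenic mice heterozygous for Rosa-eYFP that lacked CD45 and lineage markers and carried CD54, BP1 and YFP, and on 1 array, called YFP-negative, were cells of the same gate and genotype without YFP. Another 3 arrays, called wild type, held CD45-negative, lineage-negative, CD54-positive, BP1-positive cells of wild-type mice, and 2 arrays held total bone marrow of wild-type mice. All mice were young adults of strain C57Bl/6J, and those sorted were 6 to 12 weeks old. The YFP label marks a history of Cre activity, and sorted inputs were 1800 to 10000 cells (2300 for the YFP-negative array). The sources used here do not say whether replicates came from separate animals or pools, so p-values measure the spread between arrays, which may be technical. In bulk samples, fewer cells of a type and less RNA per cell cannot be told apart.

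The gate was visible in its own genes. Il7, the B cell growth factor, was higher than in total marrow by 3.91 log2 units in YFP-positive cells and 4.52 in wild type, Enpep (BP1) by 2.71 and 3.31 and Icam1 (CD54) by 1.16 and 1.06, while Ptprc (CD45) was lower, at -5.97 and -6.07. The mean of 5 reticular stroma markers was 10.93 to 11.20 across the 6 arrays of YFP-positive or wild-type cells, against 3.99 to 4.07 in marrow. The mean of 9 neutrophil markers was 11.66 to 11.71 in marrow and 4.04 to 6.79 on those 6 arrays, with YFP-positive replicate 1 highest among them. The YFP-negative array had another distribution, with a median of 3.46 against 4.51 to 4.60, so that comparisons with it use values after cyclic loess normalization and the others use values as deposited. On the loess scale, Il7 was at 7.03 on that array, 6.49 to 7.78 on the YFP-positive arrays, and 3.06 and 2.94 in marrow. Enpep was at 6.82 there against 3.79 and 3.76 in marrow, Icam1 at 6.66 against 5.09 on both, and Ptprc at 3.86 against 9.62 and 9.70. The mean of the 5 reticular stroma markers was 10.93 there and 10.56 to 11.07 on the 6 arrays of YFP-positive or wild-type cells. Values are log2 signals, a difference of 1 is a doubling, and a gene was called changed at a limma adjusted p under 0.05.

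The map of all members shows where each family member was bright. Taking the median of all values, 4.43 as deposited, as a mark of a dim signal, the group mean was above it for 24 of 44 members in YFP-positive cells, 24 in wild-type cells and 14 in total marrow. On every array, 16 members lay below it: Mmp1a, Mmp1b, Mmp3, Mmp7, Mmp10, Mmp12, Mmp20, Mmp21, Mmp27, Adamts6, Adamts8, Adamts13, Adamts16, Adamts18, Adamts19 and Adamts20. This mark is not a measured detection limit.

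**Figure D1:**
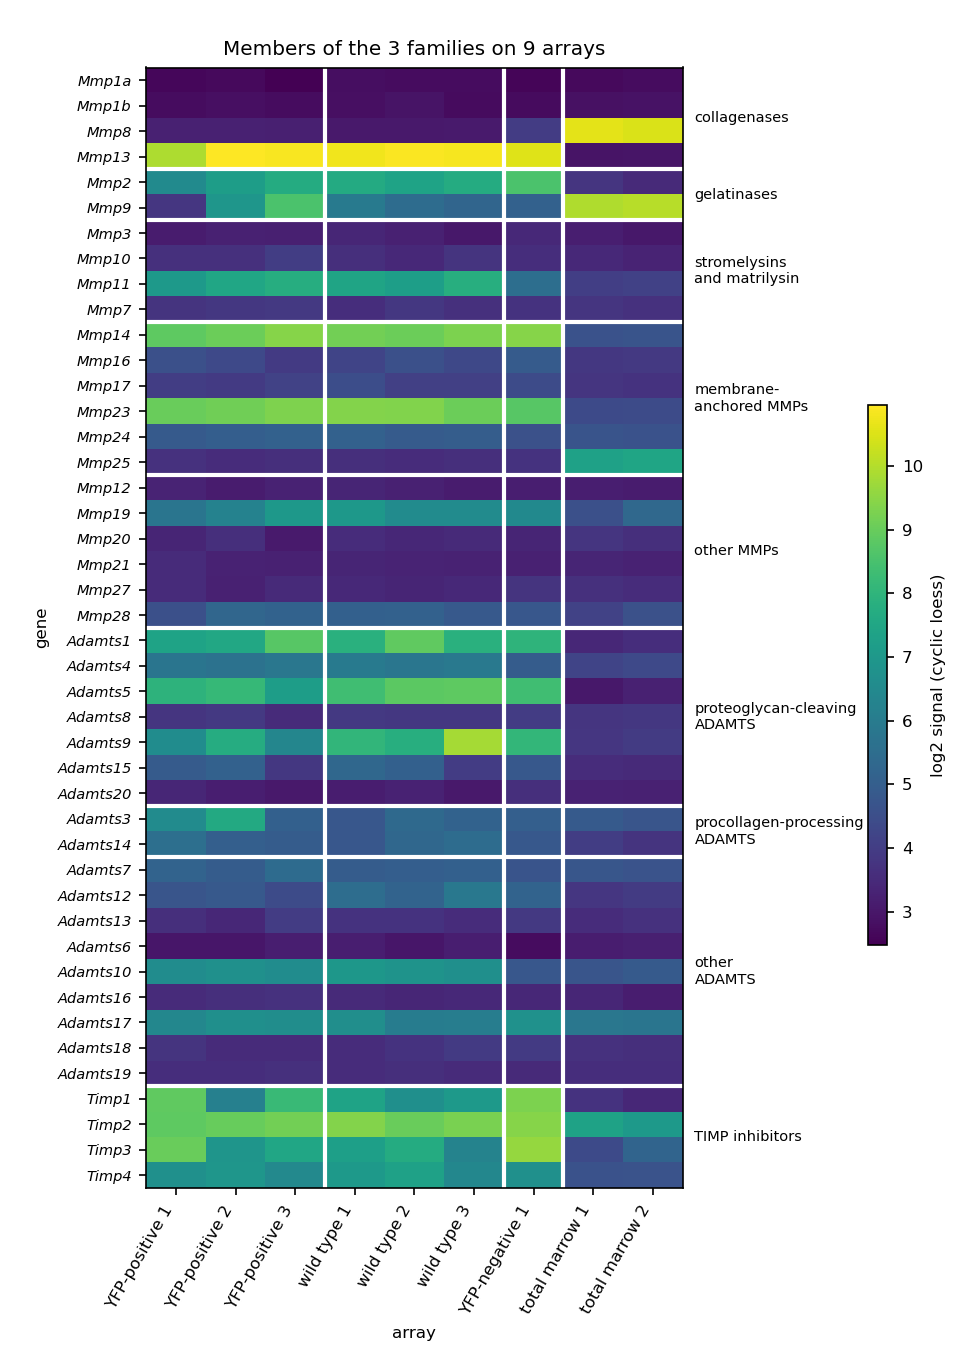
Log2 signal after cyclic loess (colour) of the 44 members (rows, grouped by role) on the 9 arrays (columns, grouped by sample). Mmp13, Mmp14, Mmp23 and Timp2 are bright in all sorted columns, and Mmp8, Mmp9 and Mmp25 are bright in the 2 marrow columns.

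The collagenases made the sharpest contrast, because Mmp13 and Mmp8 lie in the same run of 10 neighbouring Mmp genes on mouse chromosome 9 and behaved as opposites. In RefSeq order that run reads Mmp13, Mmp12, Mmp1b, Mmp3, Mmp1a, Mmp10, Mmp8, Mmp27, Mmp20, Mmp7, between Dcun1d5 and Tmem123. Mmp13, which cuts fibrillar collagen, measured 10.07, 11.01 and 10.73 on the YFP-positive arrays, 11.06, 11.33 and 11.06 on the wild-type arrays, and 3.56 and 3.48 in total marrow. Every sorted array was far above both marrow arrays.

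Mmp8, the collagenase of neutrophil granules, measured 3.29, 3.31 and 3.27 on the YFP-positive arrays, 3.11, 3.13 and 3.10 on the wild-type arrays, and 10.64 and 10.51 in total marrow. Here both marrow arrays were high and all sorted arrays were dim. Mmp13 was higher than in marrow by 7.09 ± 0.26 log2 units (SE; 136-fold, limma adjusted p = 7.39e-07) in YFP-positive cells, and in wild type by 7.63 ± 0.26 (198-fold, adjusted p = 4.84e-07). Mmp8 differed by -7.28 ± 0.10 (155-fold lower, adjusted p = 5.19e-08) and -7.46 ± 0.10 (176-fold lower, adjusted p = 4.96e-08). In each case the lower group was dim, so the sizes may be underestimates.

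The other 8 genes of the run were among those dim on all arrays, from Mmp12 next to Mmp13 to Mmp7 at the far end. None of them was called in either comparison with marrow. Mmp10, a stromelysin, had the largest difference of the 8, at 0.53 log2 units (adjusted p = 0.0793) in YFP-positive cells.

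**Figure D2:**
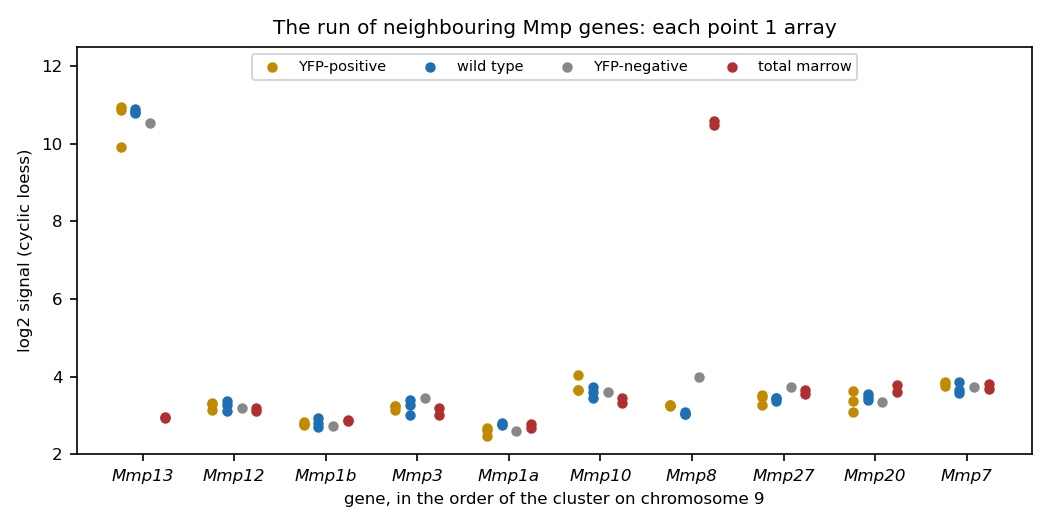
Log2 signal after cyclic loess (vertical axis) of the 10 neighbouring Mmp genes in their order on chromosome 9 (horizontal axis, not to scale), with 1 point per array. Only Mmp13, on the 7 sorted arrays, and Mmp8, on the 2 marrow arrays, stand clear of the other genes.

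The sequences before the starts of Mmp13 and Mmp8 are shown because these neighbours had opposite patterns. They are the 250 bases upstream from RefSeq (GRCm38.p6), 5′ to 3′ on the plus strand, at chr9:7272264-7272513 for Mmp13 and chr9:7558179-7558428 for Mmp8. Capitals mark matches to letters searched on both strands: AP-1 (TGANTCA), RUNX (TGTGGT) and C/EBP (TTNNGCAA).
Mmp13: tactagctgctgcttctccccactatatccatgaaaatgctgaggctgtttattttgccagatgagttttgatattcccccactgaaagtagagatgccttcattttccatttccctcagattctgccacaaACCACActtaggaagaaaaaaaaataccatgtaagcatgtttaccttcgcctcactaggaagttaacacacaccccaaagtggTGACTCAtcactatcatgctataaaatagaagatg
Mmp8: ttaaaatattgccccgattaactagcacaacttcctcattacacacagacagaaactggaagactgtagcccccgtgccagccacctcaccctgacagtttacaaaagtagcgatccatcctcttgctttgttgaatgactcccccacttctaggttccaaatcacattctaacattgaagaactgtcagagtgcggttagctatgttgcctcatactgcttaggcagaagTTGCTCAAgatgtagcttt

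The Mmp13 window held an AP-1 match that begins 35 bases and a RUNX match that begins 118 bases before the start, and the Mmp8 window held neither and a C/EBP match that begins 19 bases before it. An AP-1 match was found for 8 of the 10 genes of the run, all but Mmp8 and Mmp27, and for 0 of the 20 other members with a window. Counted by windows, as some genes have more than 1, these were 8 of 12 and 0 of 21, while 6.75% of all 32851 RefSeq windows of this length held one; Mmp12 and Mmp7 have 2 windows each, with the match in 1. RUNX letters occurred in 14.0% of all windows, in 4 of 12 of the run and 2 of 21 of the other members, and C/EBP letters in 9.56% of all windows, in 6 of 12 and 0 of 21. Of the 44 members, 30 had a window. The others, among them Mmp2, Mmp9, Mmp19, Adamts4, Adamts5 and Adamts10, were not searched. The 8 matches are shown within 40 bases, capitals marking the AP-1 letters, since the dim neighbours and the bright Mmp13 share them; all read along the gene, on the plus strand except for Mmp1b on the minus strand.
Mmp13: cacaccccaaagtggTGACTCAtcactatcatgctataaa
Mmp12: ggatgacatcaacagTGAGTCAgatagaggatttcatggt
Mmp1b: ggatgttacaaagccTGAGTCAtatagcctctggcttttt
Mmp3: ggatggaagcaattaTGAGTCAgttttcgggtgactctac
Mmp1a: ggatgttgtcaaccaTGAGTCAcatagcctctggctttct
Mmp10: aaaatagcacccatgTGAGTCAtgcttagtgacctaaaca
Mmp20: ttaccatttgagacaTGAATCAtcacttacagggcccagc
Mmp7: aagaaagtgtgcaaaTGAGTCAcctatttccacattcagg

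These stretches lie at chr9:7272464-7272503 (Mmp13), chr9:7347315-7347354 (Mmp12), chr9:7388095-7388134 (Mmp1b), chr9:7445761-7445800 (Mmp3), chr9:7464053-7464092 (Mmp1a), chr9:7502264-7502303 (Mmp10), chr9:7628121-7628160 (Mmp20) and chr9:7692012-7692051 (Mmp7). A match is a description of letters, not a measured binding site. Mmp13 was bright with such a match, and 7 neighbours with one were dim on every array.

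Of 12 factors named with such promoters, all but Runx2 were measured here by a row with 1 gene. Against marrow, Runx1 was higher by 2.44 log2 units in YFP-positive cells and 2.57 in wild type (adjusted p = 9.46e-06 and 6.57e-06). Lower were the AP-1 members Fosl1 (-2.50 and -2.76) and Fosl2 (-1.59 and -2.20) and also Ets2 (-2.70 and -2.05) and Ets1. The other AP-1 members, Fos, Fosb, Jun, Junb and Jund, were not called, and neither was Runx3. Fos, Fosb, Jun, Junb and Jund lay above the mark of 4.43 on every YFP-positive and wild-type array. Thus in both comparisons 1 of 11 was higher, 4 were lower and 6 were not called. Of all rows, 11.0% and 10.4% were called higher and 18.5% and 13.9% lower. The median differences of the list were -0.68 and -0.36 log2 units, against 0.09 and 0 over all rows.

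Across the whole family, YFP-positive cells had 19 of 44 members higher than total marrow and 3 lower, when 29.5% of all rows were called, 11.0% higher and 18.5% lower. The wild-type cells had 16 higher and 3 lower, against 10.4% and 13.9% of all rows (24.3% in either direction). The median difference of the members was 0.53 log2 units in YFP-positive cells and 0.38 in wild type, against 0.09 and 0 over all rows. Both comparisons use the same 2 marrow arrays. By family, those higher in YFP-positive and wild-type cells were 6 and 6 of 22 Mmp genes, 9 and 7 of 18 Adamts genes, and 4 and 3 of 4 Timp genes, and all 3 lower members were Mmp genes. Of the called members described below, Mmp2, Mmp11, Adamts1, Adamts4, Adamts5, Adamts9, Adamts12, Adamts14 and Timp1 were dim in marrow and Mmp25 was dim in sorted cells. Their differences may be underestimates too, although Adamts4 and Mmp11, at 4.42 and 4.41 in marrow, lay close to the mark of 4.43. All YFP-positive arrays lay above both marrow arrays for 30 of 44 members and below for 3, against 32.7% and 27.1% of all rows. For wild-type arrays these were 25 and 7, against 25.5% and 28.2%.

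**Figure D3:**
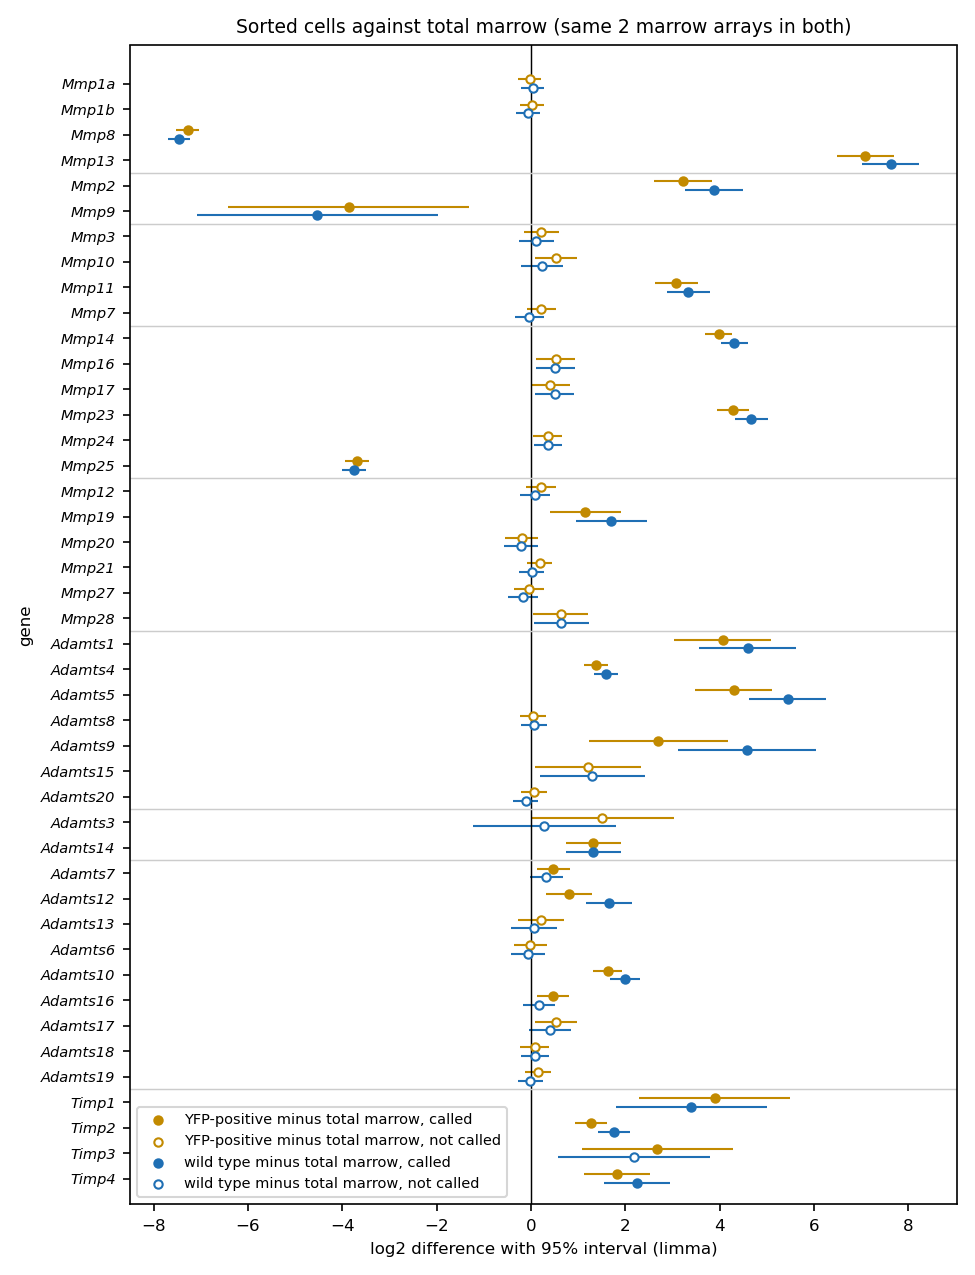
Log2 difference from total marrow (horizontal axis) with limma's 95% interval for each member (rows) in YFP-positive and wild-type cells, values as deposited, where filled points were called. Mmp8, Mmp9 and Mmp25 are the called points left of 0, and Mmp13 is farthest to the right.

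The gelatinases, which cut denatured collagen and basement membrane, went in opposite directions. Mmp2 measured 6.69, 7.28 and 7.61 on the YFP-positive arrays, 7.86, 7.75 and 7.95 on the wild-type arrays, and 4.18 and 3.77 in marrow. All sorted arrays were above marrow, and the differences were 3.22 ± 0.26 (adjusted p = 6.27e-05) and 3.89 ± 0.26 log2 units (adjusted p = 2.04e-05).

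Mmp9, which neutrophils and osteoclasts make, measured 10.34 and 10.37 in marrow, 6.16, 5.82 and 5.49 on the wild-type arrays, and 3.97, 7.03 and 8.46 on the YFP-positive arrays. The marrow was above every sorted array, but the YFP-positive arrays ranged from dim to bright. Its differences were -3.87 ± 1.10 (adjusted p = 0.0331) and -4.53 ± 1.10 log2 units (adjusted p = 0.0197). The SD of 2.29 in YFP-positive cells was reached by 0.13% of bright rows, whose median SD was 0.33. The call in YFP-positive cells was lost after cyclic loess (-3.56, adjusted p = 0.0602) or quantile normalization (-3.43, 0.0786), in a fit on the groups compared alone (0.0894), and without marrow replicate 1 (adjusted p = 0.15) or 2 (0.139) or any of wild-type replicates 1 to 3 (0.0533, 0.0559 and 0.0522). The call in wild-type cells was lost without marrow replicate 1 (adjusted p = 0.111) or 2 (0.106) or wild-type replicate 2 (0.0535) or 3 (0.059).

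Neutrophil transcripts also varied across the YFP-positive arrays. S100a8, a granulocyte calcium-binding protein, measured 11.01, 9.21 and 4.36 there, in the reverse order of Mmp9, and Ly6g was at 2.92 to 3.10, against 10.81 and 10.49 in marrow. The mean of the 9 neutrophil markers was 6.79, 6.00 and 4.34, and their part in the Mmp9 values was not tested. Of the osteoclast markers, Acp5 measured 3.97, 3.98 and 4.61 on these arrays against 7.55 and 7.65 in marrow, whereas Ctsk, which stromal cells can also make, measured 7.66, 7.45 and 7.28 against 4.19 and 4.84.

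Membrane-anchored MMPs were divided in the same way. Mmp14, the collagenase and activator of Mmp2 at the cell surface, measured 9.01, 9.13 and 9.30 on the YFP-positive arrays, 9.42, 9.47 and 9.52 on the wild-type arrays, and 5.19 and 5.14 in marrow. Mmp23 measured 9.17, 9.19 and 9.20, then 9.63, 9.78 and 9.32, against 4.94 and 4.87. Mmp25, a membrane-anchored enzyme of leucocytes, measured 3.69, 3.59 and 3.73, then 3.63, 3.57 and 3.57, against 7.28 and 7.41 in marrow.

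Thus Mmp14 and Mmp23 were bright in sorted cells and Mmp25 in marrow, with no overlap. Against marrow, Mmp14 was higher by 3.98 ± 0.12 and 4.31 ± 0.12 log2 units in YFP-positive and wild-type cells, with adjusted p = 3.59e-07 and 2.41e-07. Mmp23 was higher by 4.28 ± 0.15 and 4.67 ± 0.15, with adjusted p = 5.86e-07 and 3.77e-07. Mmp25 was lower, at -3.68 ± 0.11 and -3.76 ± 0.11, with adjusted p = 3.15e-07 and 2.62e-07. The remaining members of this class, Mmp16, Mmp17 and Mmp24, had differences of 0.36 to 0.53 log2 units and were not called.

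Among the other MMPs, Mmp11 and Mmp19 were higher in both sorted groups. Mmp11, known as stromelysin-3, measured 7.19, 7.59 and 7.69 on the YFP-positive arrays, 7.63, 7.57 and 8.02 on the wild-type arrays, and 4.42 and 4.40 in marrow. Its differences were 3.08 ± 0.20 (adjusted p = 1.46e-05) and 3.34 ± 0.20 log2 units (adjusted p = 8.67e-06), with all 6 sorted arrays above marrow. Mmp19 was higher by 1.15 ± 0.32 (adjusted p = 0.0316) and 1.71 ± 0.32 (adjusted p = 0.00627). These calls were lost without marrow replicate 1 (adjusted p = 0.234 and 0.0646), and the first also without YFP-positive replicate 2 (0.0577) or 3 (0.0541) or wild-type replicate 2 (0.0531).

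The aggrecan- and versican-cleaving ADAMTS genes were led by Adamts5, Adamts1 and Adamts9. Adamts5, a main aggrecan cleaver of mouse cartilage, measured 8.11, 8.27 and 7.10 on the YFP-positive arrays, 8.60, 9.20 and 9.12 on the wild-type arrays, and 3.48 and 3.58 in marrow. Adamts1, its neighbour on chromosome 16, measured 7.54, 7.65 and 8.67, then 8.08, 9.25 and 8.12, against 3.87 and 3.90. Adamts9 measured 6.76, 7.81 and 6.29, then 8.28, 8.17 and 10.06, against 4.23 and 4.28.

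For these 3 genes every sorted array was above marrow, and wild-type replicate 3 stood above the others for Adamts9. In YFP-positive and wild-type cells, Adamts5 was higher than in marrow by 4.30 ± 0.35 and 5.44 ± 0.35 log2 units (adjusted p = 6.14e-05 and 1.51e-05). Adamts1 was higher by 4.06 ± 0.44 and 4.60 ± 0.44 (adjusted p = 0.000312 and 0.000152), and Adamts9 by 2.70 ± 0.63 and 4.58 ± 0.63 (adjusted p = 0.0149 and 0.00115). All 6 rows of Adamts9 were called higher in both comparisons. Its call on the row used was lost in YFP-positive cells without marrow replicate 1 (adjusted p = 0.0931) or 2 (0.0786).

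Adamts4, the other classical aggrecanase, measured 5.84, 5.72 and 5.83 on the YFP-positive arrays, 6.05, 5.97 and 6.00 on the wild-type arrays, and 4.37 and 4.47 in marrow. These narrow groups gave differences of 1.38 ± 0.11 (adjusted p = 4.39e-05) and 1.59 ± 0.11 log2 units (adjusted p = 1.86e-05). Adamts15 was not called (1.21, adjusted p = 0.0997, and 1.3, adjusted p = 0.0967), and the dim Adamts8 and Adamts20 were not called either.

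Adamts10, an enzyme linked to fibrillin microfibrils, measured 6.70, 6.81 and 6.53 on the YFP-positive arrays, 7.13, 7.11 and 6.89 on the wild-type arrays, and 5.02 and 5.09 in marrow. All sorted arrays were above marrow, by 1.63 ± 0.13 (adjusted p = 6.5e-05) and 1.99 ± 0.13 log2 units (adjusted p = 1.95e-05) on average. Adamts14, which removes the amino propeptide of procollagen, was higher by 1.32 in both groups (adjusted p = 0.00582 and 0.00634), and Adamts12 by 0.80 and 1.65 (adjusted p = 0.023 and 0.000708). The calls of Adamts14 were lost without marrow replicate 2 (adjusted p = 0.0545 and 0.0617), and that of Adamts12 in YFP-positive cells without marrow replicate 1 (0.147) or 2 (0.083) or YFP-positive replicate 2 (0.0584).

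The other procollagen processor, Adamts3, was not called on any of its 16 rows. On the row used it measured 6.62, 7.68 and 5.07 on the YFP-positive arrays, 4.89, 5.56 and 5.24 on the wild-type arrays, and 5.05 and 4.85 in marrow, so that 2 YFP-positive arrays were high and the third lay among the other groups. Small differences at the edge of the threshold in YFP-positive cells alone were those of Adamts7 (0.48, adjusted p = 0.0496) and Adamts16 (0.47, adjusted p = 0.0452), the latter dim in both groups. Each of these 2 calls was lost in 7 of the 8 fits that left out 1 array (adjusted p of up to 0.228 and 0.252), and the test between YFP-positive and wild-type cells called neither.

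All 4 Timp genes were called higher than in marrow in YFP-positive cells, and 3 of 4 in wild-type cells. Of all rows, 11.0% and 10.4% were called higher in these comparisons. Timp1 measured 9.02, 6.27 and 8.15 on the YFP-positive arrays, 7.61, 7.05 and 7.31 on the wild-type arrays, and 4.12 and 3.73 in marrow. Timp2, which also takes part in Mmp2 activation by Mmp14, measured 9.01, 9.03 and 9.02, then 9.66, 9.43 and 9.47, against 7.95 and 7.56.

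Timp3, which binds the matrix, measured 9.19, 6.99 and 7.41 on the YFP-positive arrays, 7.48, 8.08 and 6.55 on the wild-type arrays, and 4.83 and 5.54 in marrow. Timp4 measured 6.86, 7.01 and 6.40, then 7.26, 7.64 and 6.62, against 4.96 and 4.89. No sorted array overlapped marrow for any of the 4, when 32.7% of all rows lay wholly higher in YFP-positive cells and 25.5% in wild type. Their spread differed. In YFP-positive cells the SD was 1.41 for Timp1 and 1.17 for Timp3, with replicate 1 highest and replicate 2 lowest for both, and 0.01 for Timp2.

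Against marrow, Timp1 was higher by 3.89 ± 0.69 and 3.4 ± 0.69 log2 units in YFP-positive and wild-type cells (adjusted p = 0.00423 and 0.00872); the second call was lost without marrow replicate 2 (0.0699). Timp4 was higher by 1.83 ± 0.30 and 2.25 ± 0.30 (adjusted p = 0.00305 and 0.00104), and Timp2 by 1.27 ± 0.15 and 1.77 ± 0.15 (adjusted p = 0.000436 and 6.31e-05). Timp3 was higher by 2.68 ± 0.69 in YFP-positive cells (adjusted p = 0.0224). Its difference of 2.19 ± 0.69 in wild-type cells was not called (adjusted p = 0.0567), and the call in YFP-positive cells was lost without marrow replicate 1 (adjusted p = 0.156) or 2 (0.069).

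**Figure D4:**
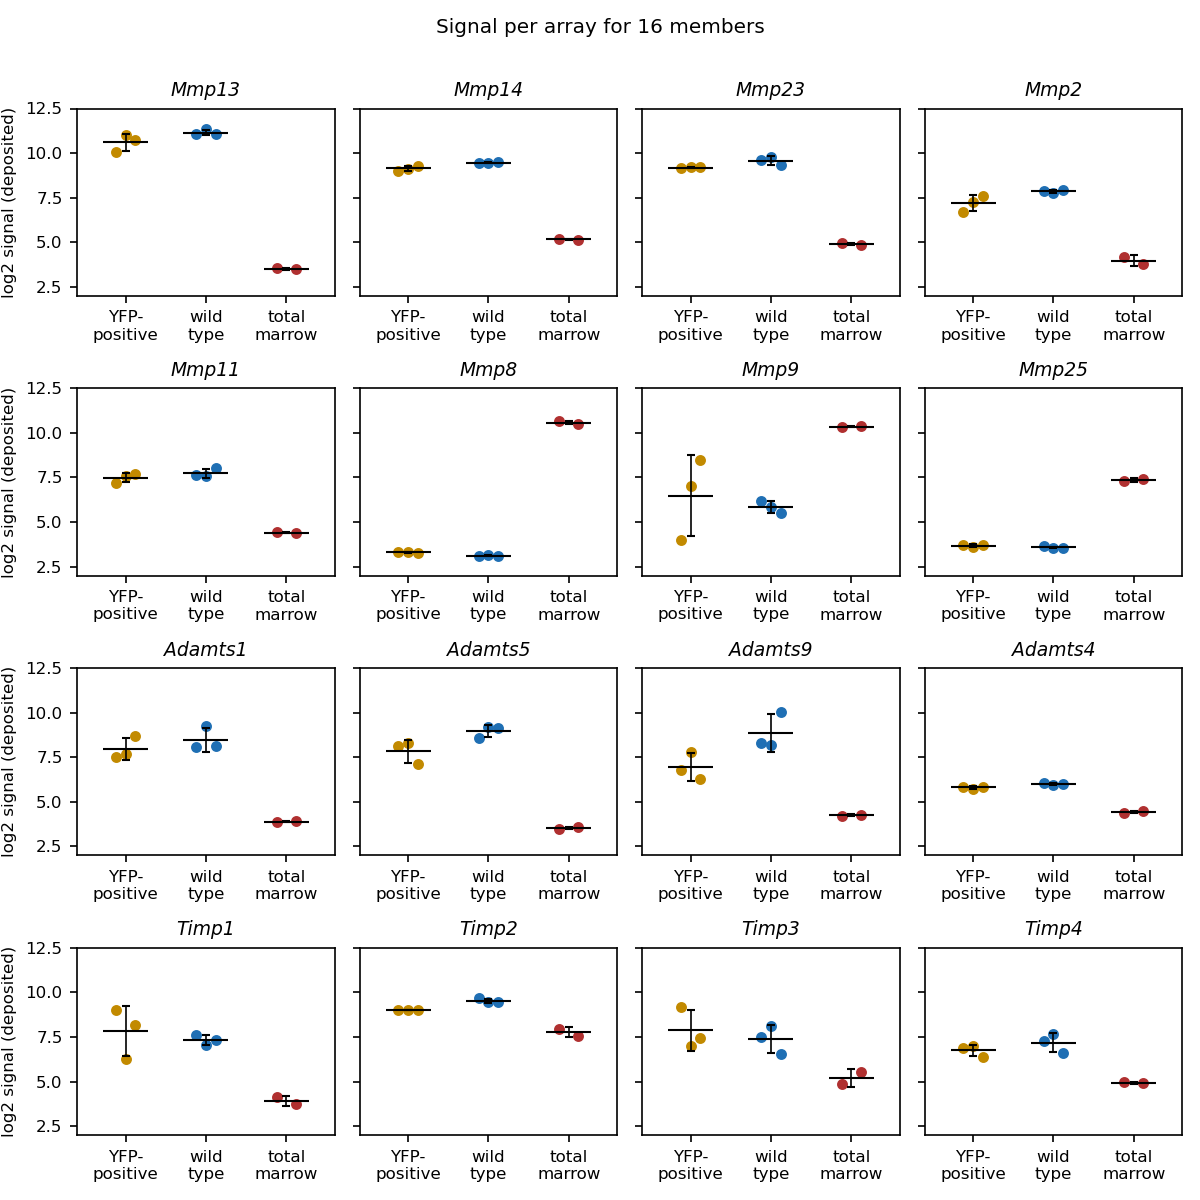
Deposited log2 signal (vertical axes) of 16 members on the YFP-positive, wild-type and total marrow arrays, with 1 point per array, the mean as a line and the SD as a bar. Mmp8, Mmp9 and Mmp25 are higher in marrow, the other 13 panels are higher in both sorted groups, and the YFP-positive points of Mmp9, Timp1 and Timp3 spread most.

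YFP-positive and wild-type cells did not differ by the test in any of the 44 members. No row of the array was called (0% of 21789 rows, with 3250 at an unadjusted p under 0.05), and the smallest adjusted p of a member was 0.187. The 95% interval lay within 1 log2 unit of 0 for 31 of 44 members. On the values as deposited, 9 members had an unadjusted p under 0.05 and were lower in YFP-positive cells, against 9.12% of all rows on that side, and 0 were higher, against 5.8%. After cyclic loess those counts were 3 lower and 2 higher (5.48% and 5.1% of all rows), after quantile normalization 3 and 0 (5.05% and 5.51%), and after median scaling 10 and 0 (10.3% and 4.22%).

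The members with the smallest p were Adamts12, at -0.85 log2 units (95% interval -1.28 to -0.42, adjusted p = 0.187), Timp2, at -0.50 (-0.80 to -0.19, adjusted p = 0.242), Adamts5, at -1.14 (-1.87 to -0.41, adjusted p = 0.249), and Adamts9, at -1.88 (-3.19 to -0.57, adjusted p = 0.264). As deposited, all 3 YFP-positive arrays were below all 3 wild-type arrays for each of them. After cyclic loess Timp2 overlapped, with YFP-positive replicate 3 at 9.17 and wild-type replicate 2 at 9.02. Groups that did not overlap in this direction were found, as deposited, for 10 of 44 members, against 8.72% of all rows. In the other direction there were 4, against 13% of all rows. These counts depended on the scale. They were 4 and 2 after cyclic loess, 4 and 1 after quantile normalization, and 10 and 3 after median scaling. The shares of all rows on those scales were not counted. The size for Timp2 depended on the scale, at -0.22 after cyclic loess, whereas Adamts9 remained at -1.65 and Adamts12 at -0.85.

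Mmp13 was at -0.55 (-1.09 to -0.01, adjusted p = 0.334) and Mmp8 at 0.18 (-0.03 to 0.39, adjusted p = 0.38) in YFP-positive minus wild-type cells; after cyclic loess and quantile normalization Mmp13 was at -0.26 and -0.31. The intervals were wider for Mmp9 (0.66, -1.63 to 2.95), Timp1 (0.49, -0.95 to 1.93) and Timp3 (0.49, -0.94 to 1.93), which had the wide YFP-positive spread. Without YFP-positive replicate 1, the differences of Timp1 and Timp3 turned to -0.11 and -0.17.

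The YFP-negative array was set first against total marrow. On the cyclic loess scale, 17 members were higher than in marrow and 2 lower, against 13.0% and 13.2% of all rows (26.2% in either direction), and the median difference of members was 0.35 log2 units against 0.00 over all rows. As deposited, with all rows shifted by a median of -0.85, the split was 10 higher and 19 lower, against 4.05% and 67.9% of all rows. Mmp13 measured 10.54 on this array and 2.94 and 2.96 in marrow, a difference of 7.60 ± 0.39 (adjusted p = 1e-05), and Mmp8 measured 4.0 against 10.60 and 10.48, a difference of -6.55. Next in size among the called members were Timp1 (5.73), Adamts5 (5.21), Mmp2 (4.94), Timp3 (4.83), Mmp14 (4.79), Adamts1 (4.48), Mmp23 (4.37) and Adamts9 (4.20), with Mmp25 lower at -3.68. Of the 6 rows of Adamts9, 2 were called higher here, and those not called ranged from 0.73 (adjusted p = 0.637) to 3.15 (0.0635). Mmp9 was not called, at -4.89 (adjusted p = 0.0575). The group has 1 array, so its spread was taken from the other groups and its batch cannot be told apart from its group.

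Against the other sorted cells, Adamts10, Mmp11 and Adamts4 were lower on the YFP-negative array. This made 3 members lower and 1 higher against YFP-positive cells, when 3.98% of rows were called, 1.36% lower and 2.62% higher, and likewise 3 and 1 against wild-type cells, with 1.57% and 3.0% of rows (4.56% in either direction). On the loess scale, Adamts10 was at 4.76 on the YFP-negative array, 6.59, 6.72 and 6.60 on the YFP-positive arrays, 6.95, 6.82 and 6.69 on the wild-type arrays, and 4.72 and 4.87 in marrow. The YFP-negative value lay at the marrow level, with a difference from marrow of -0.03 (95% interval -0.40 to 0.34).

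Mmp11 was at 5.55 on the YFP-negative array, 7.05, 7.49 and 7.77 on the YFP-positive arrays, 7.42, 7.24 and 7.79 on the wild-type arrays, and 4.05 and 4.12 in marrow. Adamts4 was at 4.94, against 5.79, 5.67 and 5.85, then 5.93, 5.79 and 5.91, and 4.21 and 4.36 in marrow. Both lay between marrow and the other sorted arrays.

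Adamts10 differed by -1.87 ± 0.15 log2 units from YFP-positive cells (adjusted p = 0.00586) and by -2.06 ± 0.15 from wild-type cells (adjusted p = 0.00327). Mmp11 was lower at -1.89 ± 0.30 (adjusted p = 0.0239) and -1.93 ± 0.30 (adjusted p = 0.0221), and Adamts4 at -0.83 ± 0.14 (adjusted p = 0.0268) and -0.94 ± 0.14 (adjusted p = 0.02). The 3 genes were lower by more after median scaling, quantile normalization or as deposited. Fitted on the groups compared alone, the calls against YFP-positive cells were lost (Adamts10, adjusted p = 0.226; Mmp11, 0.242; Adamts4, 0.256), as were those of Mmp11 (0.0517) and Adamts4 (0.0562) against wild-type cells. Leaving out 1 array ended no call of Adamts10. It ended those of Mmp11 without either marrow array (0.0592 against YFP-positive and 0.0549 against wild-type cells) and, against wild-type cells, without wild-type replicate 1 (0.0569), and those of Adamts4 against YFP-positive cells without either marrow array (0.0586) or wild-type replicate 2 (0.0508) and against wild-type cells without wild-type replicate 1 (0.0557) or 3 (0.0502). The calls of Adamts4 were lost with trend and robust moderation too (0.0791 and 0.0556), and that against YFP-positive cells with dim rows left out (0.0662).

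The fourth call was Mmp8, at 4.0 on the YFP-negative array against 3.23 to 3.27 in YFP-positive and 3.04 to 3.10 in wild-type cells. It was dim in all of these, so its size is not resolved, and as deposited its sign turned. Against YFP-positive cells its call was also lost after quantile normalization (adjusted p = 0.125), with dim rows left out (0.0751), with trend and robust moderation (0.0622), on the groups compared alone (0.258), and without either marrow array (0.0543) or wild-type replicate 2 (0.0508). Against wild-type cells it was lost after quantile normalization (0.0886) and on the groups compared alone (0.0533). Members without a call included Mmp2 (1.43, 95% interval 0.51 to 2.34, adjusted p = 0.0913 against YFP-positive cells) and Timp3 (2.54, 0.56 to 4.53, adjusted p = 0.137 against wild-type cells). Adamts9 was not called on the row used, but 1 of its 6 rows was called lower against wild-type cells (-4.295, adjusted p = 0.0478). For Mmp13 the difference from YFP-positive cells was -0.04 (-0.90 to 0.83, adjusted p = 0.968), and its sign changed with the scaling.

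**Figure D5:**
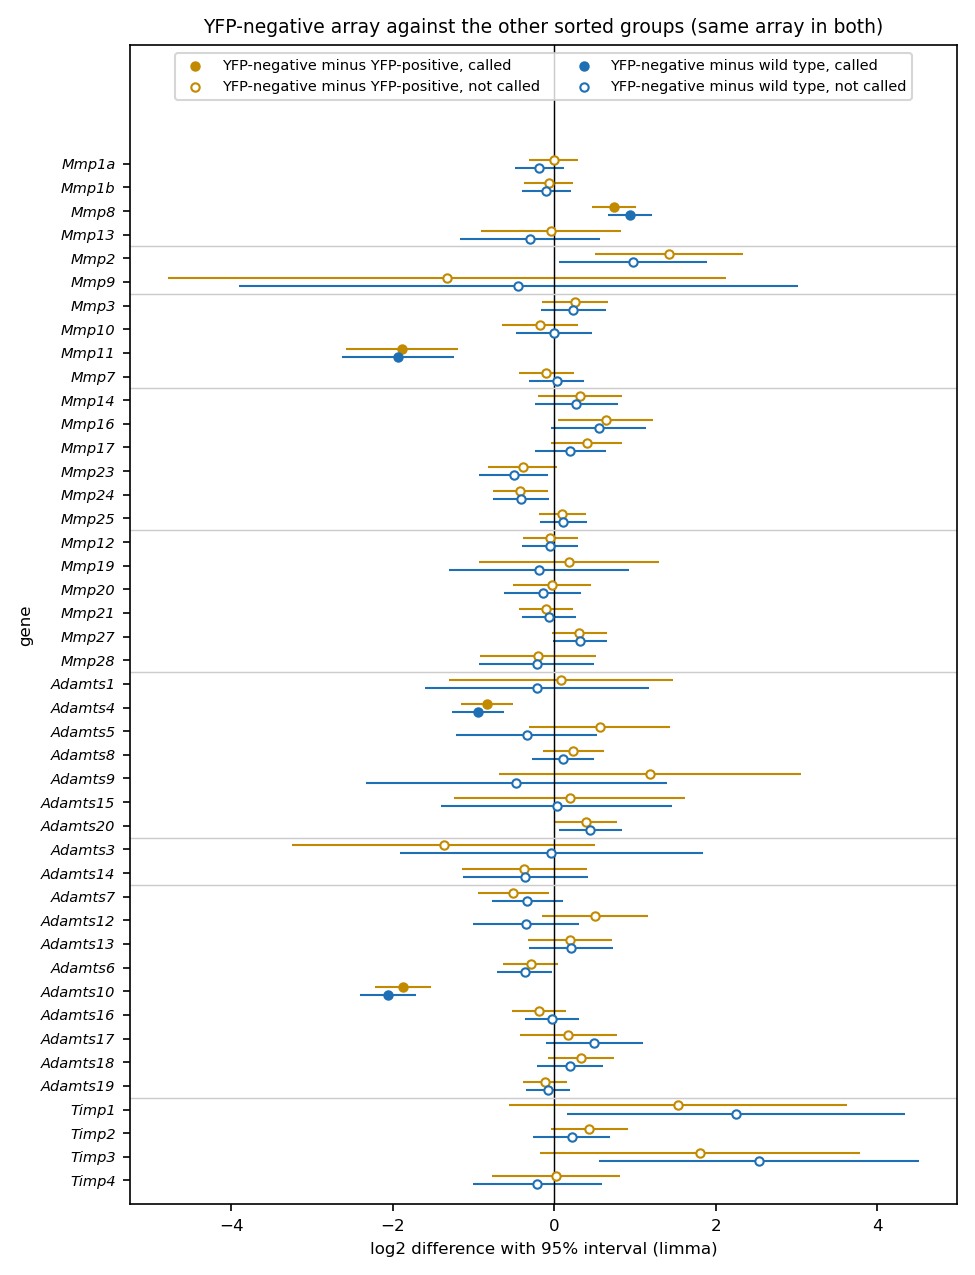
Log2 difference of the YFP-negative array (horizontal axis, cyclic loess values) from YFP-positive and wild-type cells with limma's 95% interval for each member (rows), where filled points were called. Adamts10, Mmp11 and Adamts4 are called left of 0 and the dim Mmp8 right of it, in both comparisons.

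Fibroblast markers were higher on the YFP-negative array than on the other sorted arrays. On the loess scale, the mean of 6 fibroblast markers was 6.11 there, 4.12 to 4.49 on the YFP-positive arrays and 4.17 to 4.58 on the wild-type arrays. Of the 6, 3 were called higher against YFP-positive and 4 against wild-type cells, when 2.62% and 3.0% of all rows were. In total marrow the mean was 6.33 and 6.28. Against marrow, 1 of the 6 was called higher on the YFP-negative array and 3 lower (13.0% and 13.2% of all rows). This mean therefore does not tell fibroblasts from other marrow cells. Dpt, encoding the matrix protein dermatopontin, was at 7.71 against 3.06 to 5.41 on the other sorted arrays. Of 6 chondrocyte markers, only the dim Acan was called higher against YFP-positive and wild-type cells, when 2.62% and 3.0% of all rows were. Chad, encoding the cartilage protein chondroadherin, was at 10.79 against 3.97 to 7.14 and raised the mean of the list to 5.96 against 4.50 to 5.11, while Col2a1, at 5.60, lay within the 5.32 to 6.63 of the other sorted arrays and Matn3, at 3.35, below their 3.47 to 4.42. The part of these markers in the results for Adamts10, Mmp11 and Adamts4 was not tested.

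Partners of these proteases were described from lists of related genes, in YFP-positive and then wild-type cells against marrow. The counts of each list stand against all rows, of which 11.0% and 10.4% were called higher and 18.5% and 13.9% lower. Of 8 regulators of MMPs outside the Timp family, 7 were higher and 0 lower in both (medians 1.51 and 1.56 log2 units): among them A2m, encoding the broad protease trap alpha-2-macroglobulin (3.30 and 4.13), the clearance receptor Lrp1 (3.04 and 2.85), Tfpi2 (1.99 and 1.79) and the membrane-bound inhibitor Reck (1.68 and 2.0). Of 6 genes of plasminogen activation, 0 were higher and 2 lower in both (medians 0.01 and -0.15), the urokinase gene Plau (-1.63 and -1.76) and its receptor gene Plaur (-5.56 and -5.60).

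Of the 5 tolloid proteases and enhancers, 2 and 3 were higher (medians 0.38 and 0.79), led by the procollagen C-proteinase enhancer Pcolce (7.06 and 6.87) and Bmp1, the C-proteinase (3.25 and 3.69). Of 11 ADAM genes, 3 and 2 were higher and 2 and 1 lower (medians 0.06 and -0.04), with Adam12 higher (3.49 and 4.08) and the leucocyte gene Adam8 lower (-3.48 and -3.69). Of 6 ADAMTS-like genes, which lack the protease domain, 3 were higher in both (medians 0.59 and 0.68), with Adamtsl3 first (1.79 and 2.89).

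All 8 serine proteases of the list were called in both comparisons, 4 higher and 4 lower, when 29.5% and 24.3% of all rows were called. Fap (6.01 and 6.34) and Htra1 (5.21 and 5.02) were among the higher, and the neutrophil granule proteases Ctsg (-5.99 and -6.77) and Elane (-5.39 and -6.30) among the lower. Of 6 cathepsin and cystatin genes, 3 were higher and 1 lower in both, with Ctsk, encoding the collagen-cutting cathepsin K, higher by 2.95 and 4.23. Of 14 substrate genes, 7 and 6 were higher and 1 and 0 lower (medians 0.70 and 0.74), including Col1a2 (3.39 and 3.71) and Comp (2.15 and 2.91).

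On the YFP-negative array, Pcolce2, another enhancer of procollagen processing, was higher than in YFP-positive cells by 3.33 log2 units (adjusted p = 0.000328) and than in wild-type cells by 3.12 (adjusted p = 0.000516). Tfpi2 (1.31 and 1.70), Adamtsl4 (1.04 and 0.83) and Prss23 (1.35 and 1.39) were also higher in both comparisons. Adam19 (-1.06 and -1.21), Ctsb (-1.18 and -1.08) and Col1a2 (-0.81 and -0.86) were lower in both. These comparisons share the 1 YFP-negative array.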

How the data were processed

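Each array held 1 sample. The deposited log2 values were made by the authors with Affymetrix Expression Console 1.3.1 and RMA, per the submitters' processing notes. RMA corrects background, quantile-normalizes and summarises probes. All tests compared groups within a row. Bright and dim place the signal of a row against 1 mark for all rows, and signals of different rows do not give the relative amounts of their RNA. Whether the arrays were summarised together is not given in the sources used here. Quantile normalization of arrays together makes their distributions alike. The YFP-negative array, with a median of 3.46 against 4.51 to 4.60, was not brought to the distribution of the others. Of 35556 rows, 21789 had exactly 1 gene symbol in the platform annotation and were tested, and 1621 with several genes and 12146 with none were left out. limma 3.58.1 (R 4.3.3) fitted group means to all 9 arrays (eBayes defaults, 5 residual degrees of freedom, two-sided), with Benjamini-Hochberg adjustment over the 21789 rows. Cyclic loess was applied to the 9 arrays for comparisons with the YFP-negative array. A change against a group below the median of all values (4.43, or 4.53 after loess) may be an underestimate, though this mark is not a measured detection limit. The number of arrays limits the precision. The fit was tested on simulated data. All 44 members matched RefSeq (GRCm38.p6) by identifier and symbol. Members, scales and gene lists were chosen with earlier results of these data known. Values on every array are given for Mmp13, Mmp8, the Timp genes and the largest called changes (up to 12 a direction). Related genes named are up to 4 called a list and direction. Promoter motifs, and the remark on Adamts3, Adamts7 and Adamts16, were added after values were seen. Other scalings, a filter on dim rows, other variance settings, array weights, leave-one-out fits and the replicate number as a block were the alternatives.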

Additional observations from a re-analysis of the deposited data

How the results depend on the processing

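The members called were 22 (YFP-positive against marrow), 19 (wild type against marrow), 19 (YFP-negative against marrow), 0 (YFP-positive against wild type) and 4 for the YFP-negative array against each other sorted group. Of these, 14 of 22, 15 of 19, 12 of 19, 0 of 4 and 0 of 4 were called under all alternatives run. Leaving out 1 array at a time gave 15 to 23, 16 to 21, 13 to 21 and 0 to 0 calls, and 1 to 5 and 2 to 5 for the YFP-negative array against YFP-positive and wild-type cells; the 15 came without either marrow array. The YFP-negative array depended most on the scale: as deposited, where the median difference of all rows was -0.85 against marrow, -0.91 against YFP-positive and -0.88 against wild-type cells, 29 (10 higher, 19 lower), 33 (0 higher) and 31 (0 higher) members were called, when 4.05%, 0.464% and 0.335% of all rows were called higher and 67.9%, 75.4% and 74.7% lower. Median scaling gave 7 (4 higher) and 9 (4 higher) against the sorted groups (8.59% and 14.3% of all rows higher, 2.94% and 6.14% lower), and quantile normalization 3 and 3, all lower. Against YFP-positive cells, leaving out dim rows or moderating with trend and robust estimation gave 2 calls each and a fit on the groups compared 0, and against wild-type cells that fit gave 1. Same-numbered YFP-positive and wild-type arrays did not deviate together (correlations -0.06, -0.03 and -0.01), so the numbers are not read as pairs; the replicate block gave 18, 20, 16 and 0 calls and 0 and 0 for the YFP-negative array against YFP-positive and wild-type cells.

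Over all 44 members, the sign as deposited differed from that after cyclic loess for 15 against marrow, 19 against YFP-positive and 16 against wild-type cells, of which 3, 1 and 1 were called; quantile normalization turned 1, 4 and 1 and median scaling 8, 12 and 9, none of them called. Without the YFP-negative array, other scalings turned up to 4, 1 and 11 signs in the 3 comparisons, none of them called. Among members called or named by rule, the values that turned were these. YFP-negative against marrow as deposited: Mmp17 -0.21, Adamts4 -0.74 and Adamts17 -0.51. YFP-negative against YFP-positive as deposited: Mmp8 -0.51, Timp2 -0.38 and Timp4 -1.19; against wild type, Mmp8 -0.33 and Timp2 -0.88. Timp4 against YFP-positive was -0.077 after quantile normalization, -0.082 after median scaling, -0.027 with array weights, -0.097 to 0.124 when 1 array was left out (lowest without YFP-positive replicate 3) and -0.096 with the block. Mmp13 there was 0.29 after median scaling, -0.372 to 0.149 when 1 array was left out (0.149 and 0.107 without YFP-positive replicate 2 or 3), and 0.23 with the block. YFP-positive against wild type, leaving out 1 array gave -0.111 to 1.263 for Timp1 and -0.168 to 0.931 for Timp3, in both cases negative only without YFP-positive replicate 1. The cause of these changes was not tested. The number of arrays, 1 in the YFP-negative group, limits what could be called.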
